A study of Mus musculus with 4 samples.

Results

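The exon junction complex (EJC) and the core nonsense-mediated decay (NMD) machinery were measured through 9 genes, matched by Ensembl identifier among the 16449 genes of a long-read count table from the mouse embryonic pallium. Of these, 5 encode the EJC core and its peripheral partner (Eif4a3, Magoh, Magohb, Rbm8a and Casc3) and 4 encode the NMD core (Upf1, Smg1, Upf2 and Upf3b). Poly(A)-enriched RNA of the dorsal and medial pallium at E11.5 was sequenced on the Nanopore platform in 2 libraries labelled WT and 2 labelled Tut1 knockout. The Tut1 knockout embryos were Tut1 f/f;Emx1-Cre, in which Cre is expressed from the Emx1 locus in pallial progenitors, so cells of lineages that never expressed Emx1 keep an intact floxed allele; the study's sequencing list gives the WT embryos as Tut1 f/f without Cre. How many embryos went into a library is not given in the sources used here, so the p-values measure only the spread between these libraries, which may be technical.

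TUT1 is the uridylyl transferase that extends U6 small nuclear RNA, a catalytic core component of the spliceosome. The EJC is laid down on messenger RNA by the spliceosome a short way upstream of each exon junction, and it is displaced when a ribosome first translates the message. An EJC that remains downstream of a stop codon, as happens when an intron is retained or a reading frame is broken, draws UPF3B, UPF2 and the helicase UPF1 to the terminating ribosome, the kinase SMG1 phosphorylates UPF1, and the transcript is degraded. In the developing mouse cortex, loss of 1 copy of Magoh, Rbm8a or Eif4a3 is known to cause microcephaly.

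The 4 libraries held between 305642 and 397150 counts, and the median tested gene had 19 to 25 counts per library. Tut1 itself had 6 and 11 counts in the WT libraries against 29 and 25 in the Tut1 knockout libraries. It was therefore higher in the libraries labelled Tut1 knockout, by 1.71 ± 0.40 (SE) on the log2 scale (edgeR quasi-likelihood test, adjusted p = 0.0113). Reads were counted per gene and not per exon, so the row says nothing of the floxed exon and does not check the labels. The 9 pallial markers were all detected in every library, with a summed level of 1950 to 2172 CPM (counts scaled to a common library size) in WT and 1278 to 1421 in Tut1 knockout libraries. Of the 6 tested, 1 was called lower in Tut1 knockout, Lhx2 (907 ± 208 against 325 ± 61.1 CPM; SD, n = 2 each), and 4 overlapped between the groups. WT replicate 1 was the only library with Xist counts (64) and without counts of the 4 Y-linked genes examined.

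The counting of some members depends on how reads were shared between near-identical genes. Magoh and Magohb encode almost the same protein, but their coding sequences of 441 and 447 bases were identical at only 81.0% of the 441 aligned bases in the GRCm38 annotation, and the longest identical run was 17 bases. Reads long enough to span the coding sequence therefore meet 84 differing bases. The last 150 coding bases are shown because they are the coding bases nearest the poly(A) tail; capitals mark the 29 bases that differ. The Magoh bases lie on the + strand at chr4:107884950-107887276 and the Magohb bases on the - strand at chr6:131284629-131285692, both in coding exons and both with introns between the ends given.
Magoh: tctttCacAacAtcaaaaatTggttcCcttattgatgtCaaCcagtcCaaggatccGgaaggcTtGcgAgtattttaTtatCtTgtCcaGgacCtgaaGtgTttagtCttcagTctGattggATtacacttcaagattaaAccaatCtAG
Magohb: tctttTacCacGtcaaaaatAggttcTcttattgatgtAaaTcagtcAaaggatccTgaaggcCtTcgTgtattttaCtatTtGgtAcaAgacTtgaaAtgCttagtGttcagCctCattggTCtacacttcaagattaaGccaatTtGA

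Rbm8a has a copy, Rbm8a2, that is 97.9% identical over 522 aligned coding bases, with 11 differing bases and an identical run of 116 bases. The 100 coding bases in which the pair differs most hold 5 differences, again in capitals. They lie at chr3:96630361-96630889 on the + strand for Rbm8a, with intron sequence between the ends, and at chr1:175978681-175978780 on the - strand for Rbm8a2.
Rbm8a: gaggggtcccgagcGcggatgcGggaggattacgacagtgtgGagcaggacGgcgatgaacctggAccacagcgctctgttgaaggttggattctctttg
Rbm8a2: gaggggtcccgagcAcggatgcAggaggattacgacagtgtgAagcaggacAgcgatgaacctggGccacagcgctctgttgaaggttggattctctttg
Rbm8a2 was not analysed here, and how the authors treated reads that match several genes is not given in the sources used here. Reads of the copy, if any, could be in the Rbm8a row. The same holds for Eif4a3 and its 3 copies of 95.6% to 96.8% identity, Gm8994, Gm5580 and Gm5576.

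None of the 5 members that passed the filter on low counts (Rbm8a, Eif4a3, Casc3, Upf2 and Upf3b) passed the edgeR threshold of adjusted p = 0.05 over 5878 tested genes, and 0 of 5 had an unadjusted p under 0.05. Over all tested genes 2.06% were called, 1.4% higher and 0.663% lower in Tut1 knockout, and 14.2% had an unadjusted p under 0.05. DESeq2 and limma-voom likewise called 0 of the 5 and gave none an unadjusted p under 0.05; with its independent filter DESeq2 gave an adjusted p for 3 of the 5, not for Casc3 and Upf2. In 0 of the 5 did the 2 WT libraries lie wholly above or below the 2 Tut1 knockout libraries, against 42.9% of all tested genes (22.1% with Tut1 knockout above and 20.8% below). Their median log2 fold change was 0.11, with a range of -0.16 to 0.42, beside -0.01 for all tested genes. The remaining 4 members (Magoh, Magohb, Upf1 and Smg1) fell below the filter, and their fold changes below come from the same fit without a filter, in which 0.935% of 15083 genes were called and none of the 9.

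**Figure D1:**
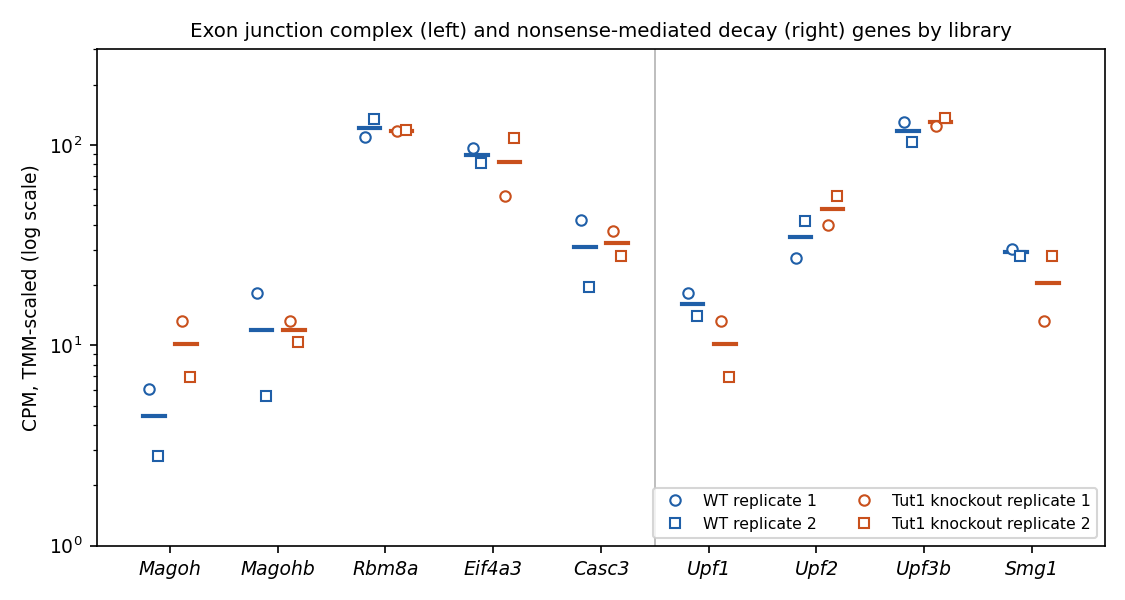
Level of each member in each library, in TMM-scaled CPM on a log axis; points are libraries (n = 2 per group) and short bars are group means. Rbm8a, Eif4a3 and Upf3b lie near 100 CPM or just above in most libraries, with Eif4a3 at 55.8 CPM in Tut1 knockout replicate 1, and the groups are apart only for Magoh, Upf1 and Smg1, which have 10 counts or fewer per library.

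Eif4a3 encodes the DEAD-box helicase that clamps the complex onto RNA. It lies on chromosome 11 (GRCm38, 119288363 to 119300089, - strand). Its level was 96.9 and 81.0 CPM in the WT libraries against 55.8 and 108 CPM in the Tut1 knockout libraries. The lowest and the highest value were both in the Tut1 knockout group, so the groups overlapped, and the gap between those 2 libraries was wider than any gap between genotypes. The means were 89.0 ± 11.3 CPM (SD, n = 2) in WT and 81.7 ± 36.7 CPM (SD, n = 2) in Tut1 knockout, a log2 fold change of -0.16 ± 0.32 (SE; edgeR, adjusted p = 0.887). The 95% interval ran from 0.569-fold to 1.40-fold. Without Tut1 knockout replicate 1 the log2 fold change was 0.28, and without replicate 2 it was -0.67, so its sign rested on 1 library.

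Rbm8a encodes Y14, which forms a heterodimer with MAGOH or MAGOHB that locks EIF4A3 in place. The gene lies on chromosome 3 (96629933 to 96633791, + strand) and was counted about as deeply as Upf3b, with 34 to 48 counts per library. It stood at 109 and 134 CPM in WT against 117 and 118 CPM in Tut1 knockout libraries. Both Tut1 knockout values fell between the WT values. The log2 fold change was -0.05 ± 0.27 (SE; edgeR, adjusted p = 0.958), with a 95% interval from 0.663-fold to 1.40-fold, and it turned to 0.10 without WT replicate 2.

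The partners of Y14 were sparsely counted. Magoh (chromosome 4, 107879755 to 107887424, + strand) had 2 and 1 counts in the WT libraries against 5 and 2 counts in the Tut1 knockout libraries. Both Tut1 knockout libraries were higher after scaling, at 13.3 and 6.95 CPM against 6.06 and 2.79 CPM, but the difference rests on 10 reads in all. From 3 against 7 counts the ratio was 2.42, with an exact 95% counting interval of 0.552 to 14.5, which does not include differences between replicates. The fit without filter gave a log2 fold change of 1.20 ± 1.04 (SE; edgeR, adjusted p = 0.862), which ranged from 0.62 without Tut1 knockout replicate 1 to 1.75 without WT replicate 1.

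Magohb (chromosome 6, 131284388 to 131293244, - strand) had 6 and 2 counts in WT against 5 and 3 counts in Tut1 knockout libraries. The 2 groups overlapped and their means were alike, at 11.9 ± 8.90 and 11.9 ± 2.03 CPM (SD, n = 2 each), with an edgeR log2 fold change of 0.04 and a 95% interval of -1.43 to 1.51. Added together, as would be needed if reads of the pair had been split, Magoh and Magohb had 8, 3, 10 and 5 counts in WT replicates 1 and 2 and Tut1 knockout replicates 1 and 2. The log2 fold change of the sum was 0.48 ± 0.60 (SE). The intronless Gm44958, which lies inside Magohb, added 1 count in 1 Tut1 knockout library.

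Casc3 (chromosome 11, 98804905 to 98833814, + strand) encodes a peripheral EJC protein that joins the complex mainly in the cytoplasm. It had 42.4 and 19.6 CPM in WT against 37.2 and 27.8 CPM in Tut1 knockout libraries. The WT libraries spanned the Tut1 knockout ones. The log2 fold change was 0.11 ± 0.48 (SE; edgeR, adjusted p = 0.951), the 95% interval ran from 0.552-fold to 2.11-fold, and the value became -0.37 without WT replicate 2 and -0.14 without Tut1 knockout replicate 1. Casc3 overlaps Msl1 on the same strand, which had 11 to 17 counts per library, so reads of the shared stretch may have been given to either gene.

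Among the NMD genes, Upf1 encodes the helicase at the centre of the pathway. It lies on chromosome 8 (70331525 to 70353278, - strand) and had 6 and 5 counts in WT against 5 and 2 counts in Tut1 knockout libraries. Both Tut1 knockout libraries, at 13.3 and 6.95 CPM, were below both WT libraries, at 18.2 and 14.0 CPM. The lower WT and the higher Tut1 knockout library each had 5 counts and were parted only by library size. The ratio of 0.659 had an exact counting interval of 0.217 to 1.86, and the fit without filter gave -0.59 ± 0.72 (SE, log2; edgeR, adjusted p = 0.862). Leaving out Tut1 knockout replicate 1 gave -1.17, and leaving out replicate 2 gave -0.31.

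Smg1 encodes the kinase that phosphorylates UPF1, and it is the longest member (15557 bases in its longest annotated transcript; chromosome 7, 118131308 to 118243670, - strand). It had 10 counts in each WT library and 5 and 8 counts in the Tut1 knockout libraries. That is 30.3 and 27.9 CPM in WT against 13.3 and 27.8 CPM in Tut1 knockout, so only replicate 1 of the latter stood clearly below the WT libraries. The log2 fold change without filter was -0.55 ± 0.54 (SE; edgeR, adjusted p = 0.862), and it was -0.07 without that library. Across the 9 members, the groups did not overlap in 3 (Magoh higher, Upf1 and Smg1 lower in Tut1 knockout), all with 10 counts or fewer per library, against 34.6% of all genes with at least 1 count.

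Upf2 (chromosome 2, 5951469 to 6056703, + strand) bridges UPF1 to UPF3B. Its level was 27.3 and 41.9 CPM in WT against 39.9 and 55.6 CPM in Tut1 knockout libraries. The groups overlapped, because WT replicate 2 was above Tut1 knockout replicate 1. The log2 fold change of 0.42 ± 0.42 (SE; edgeR, adjusted p = 0.725) was the largest in size among the 5 tested members. Its 95% interval, 0.746-fold to 2.41-fold, includes a doubling, and the value ranged from 0.15 to 0.76 when 1 library at a time was left out.

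Upf3b encodes the protein that contacts the EJC directly, and it is the X-linked member (37091678 to 37110322, - strand). It had 130 and 103 CPM in WT against 125 and 135 CPM in Tut1 knockout libraries. WT replicate 1 lay between the Tut1 knockout libraries, and WT replicate 2 was the lowest. The log2 fold change was 0.16 ± 0.27 (SE; edgeR, adjusted p = 0.867), with a 95% interval from 0.768-fold to 1.62-fold. Leaving out WT replicate 1, the library with Xist counts, gave 0.32, and leaving out WT replicate 2 gave -0.02.

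**Figure D2:**
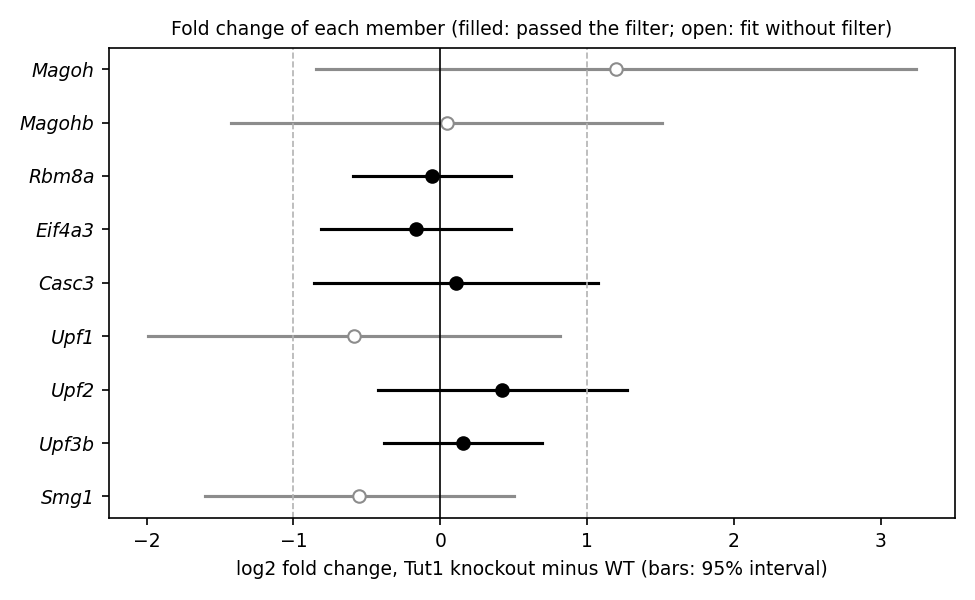
Log2 fold change (Tut1 knockout minus WT) of each member with its 95% interval from edgeR; filled circles passed the filter on low counts, open circles come from the fit without filter, and dashed lines mark a 2-fold change. Every interval includes 0; those of Rbm8a, Eif4a3 and Upf3b lie within 2-fold in either direction, those of Casc3 and Upf2 reach just above a 2-fold increase, and those of the 4 sparsely counted members pass at least 1 of the 2 lines.

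Per kilobase of the longest annotated transcript, the order of the members' mean levels was Eif4a3 (56.6 CPM per kb), Upf3b (48.4), Rbm8a (43.4), Magohb (13.2), Magoh (10.5), Casc3 (8.01), Upf2 (7.95), Upf1 (2.84) and Smg1 (1.60). A long read counts a molecule once whatever its length, so dividing by length lowers the long members, and the CPM of each is given above. The first 3 could not be told apart, since the libraries of Eif4a3 ran from 37.0 to 71.4 CPM per kb and enclosed all those of Upf3b and Rbm8a. Magohb, Magoh, Casc3 and Upf2 also overlapped one another in their libraries. Upf1 and Smg1 were lowest per kilobase, and their libraries overlapped each other.

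Summed over genes, the EJC members had 273 and 243 CPM in the WT libraries against 237 and 271 CPM in the Tut1 knockout libraries. The NMD members had 206 and 187 CPM in WT against 191 and 226 CPM in Tut1 knockout. For all 9 genes the highest sum (497 CPM) and the lowest (428 CPM) were both in the Tut1 knockout group, so the summed level did not separate the genotypes.

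Paralogues that could share or replace a member's function were also examined. Upf3a, the autosomal relative of Upf3b (69.1% identity over the aligned coding bases), had 30.5 ± 0.31 CPM in WT and 22.9 ± 12.7 CPM in Tut1 knockout (SD, n = 2 each; log2 fold change -0.34 ± 0.52 SE; edgeR, adjusted p = 0.847). Its sign rested on 1 library, at 0.06 without Tut1 knockout replicate 2 and -1.11 without replicate 1. Eif4a1 and Eif4a2, the translation-initiation relatives of Eif4a3, had log2 fold changes of 0.09 ± 0.23 and 0.02 ± 0.16 (SE; edgeR, adjusted p = 0.907 and 0.978). Eif4a2 was the most abundant of these at 643 CPM in WT and 649 CPM in Tut1 knockout libraries, and the libraries overlapped for all 3 paralogues.

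Of 63 other genes of the pathway, in 4 lists, 39 were tested, and edgeR called 0 higher and 0 lower in Tut1 knockout, beside 2.06% of all tested genes. There were 5 with an unadjusted p under 0.05 by edgeR, 1 by DESeq2 and 5 by limma-voom, and DESeq2 and limma-voom called none. Over all 5878 tested genes 834 (14.2%) had such a p by edgeR, 218 by DESeq2 and 798 by limma-voom. The median log2 fold change of the 39 was -0.09.

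Among proteins of the EJC periphery and messenger RNA export, 8 of 11 were tested, with a median log2 fold change of -0.29. The median of all tested genes was -0.01. Of the 8, 2 had higher and 6 lower values in Tut1 knockout. Both Tut1 knockout libraries lay above WT in 1 and below in 4, against 22.1% and 20.8% of all tested genes. Ddx39b, an RNA helicase of splicing and export, had 388 ± 7.86 CPM in WT and 292 ± 4.74 CPM in Tut1 knockout (SD, n = 2 each). Its 2 Tut1 knockout libraries were both below WT, with a log2 fold change of -0.41 ± 0.18 (SE; edgeR, adjusted p = 0.284). Acin1, a partner of RNPS1 and SAP18 at the EJC, had a log2 fold change of -0.35 ± 0.18 (SE; adjusted p = 0.375, edgeR). Cwc22, the spliceosome protein that brings EIF4A3 to the splicing reaction, had 29 and 27 counts in WT against 16 and 20 in Tut1 knockout libraries, a log2 fold change of -0.57 ± 0.34 (SE; edgeR, adjusted p = 0.488). None of the 3 passed the threshold.

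Of the 17 other NMD factors, 7 were tested, with 3 higher and 4 lower values and a median of -0.03. Libraries of the groups did not overlap in 2 of the 7, both with Tut1 knockout above, against 42.9% of all tested genes. Ruvbl2, a subunit of the AAA-ATPase that assists SMG1 and related kinases, had 86 and 73 counts in WT against 49 and 60 in Tut1 knockout libraries, with overlapping CPM (log2 fold change -0.48 ± 0.24 SE; edgeR, adjusted p = 0.365). Upf3a, also of this list, is described above.

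Of 25 RNA decay enzymes and their partners, 19 were tested, with 9 higher and 10 lower values and a median of -0.07. Exosc1, an exosome subunit, had 38 and 46 counts in WT against 24 and 25 counts in Tut1 knockout libraries (-0.72 ± 0.29 SE, log2; edgeR, adjusted p = 0.227). Xrn2, the nuclear 5′ to 3′ exonuclease, had 41 and 35 counts in WT against 55 and 53 in Tut1 knockout (0.56 ± 0.26 SE, log2; edgeR, adjusted p = 0.308). Zcchc8, of the nuclear exosome targeting complex, had a log2 fold change of 0.87 ± 0.44 (SE; edgeR, adjusted p = 0.359). None of the 3 passed the threshold. The libraries did not overlap in 9 of the 19 (5 higher and 4 lower in Tut1 knockout), near the 42.9% of all tested genes.

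Transcripts known to be NMD substrates give a readout of the pathway that does not rest on the members' own counts, although their transcription can change too. Of 10, 5 were tested, with 2 higher and 3 lower values and a median log2 fold change of -0.23. In 1 of the 5 both Tut1 knockout libraries lay above WT and in 2 below, against 22.1% and 20.8% of all tested genes. Snhg15, a small nucleolar RNA host whose spliced RNA is degraded by NMD, had 4 and 2 counts in WT against 15 and 10 counts in Tut1 knockout libraries. That is 8.85 ± 4.62 CPM against 37.3 ± 3.63 CPM (SD, n = 2 each), or a log2 fold change of 2.06 ± 0.62 (SE) with an edgeR adjusted p of 0.0694, which missed the threshold. Gas5, a host of the same kind and the most deeply counted of the list, had 466 and 513 counts in WT against 462 and 343 in Tut1 knockout libraries, and its log2 fold change was -0.23 ± 0.12 (SE; edgeR, adjusted p = 0.415). Atf4, a stress-response transcription factor, had 18 and 14 counts in WT against 7 and 8 in Tut1 knockout (-1.03 ± 0.46 SE, log2; edgeR, adjusted p = 0.286). The tested substrates thus had values in both directions.

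**Figure D3:**
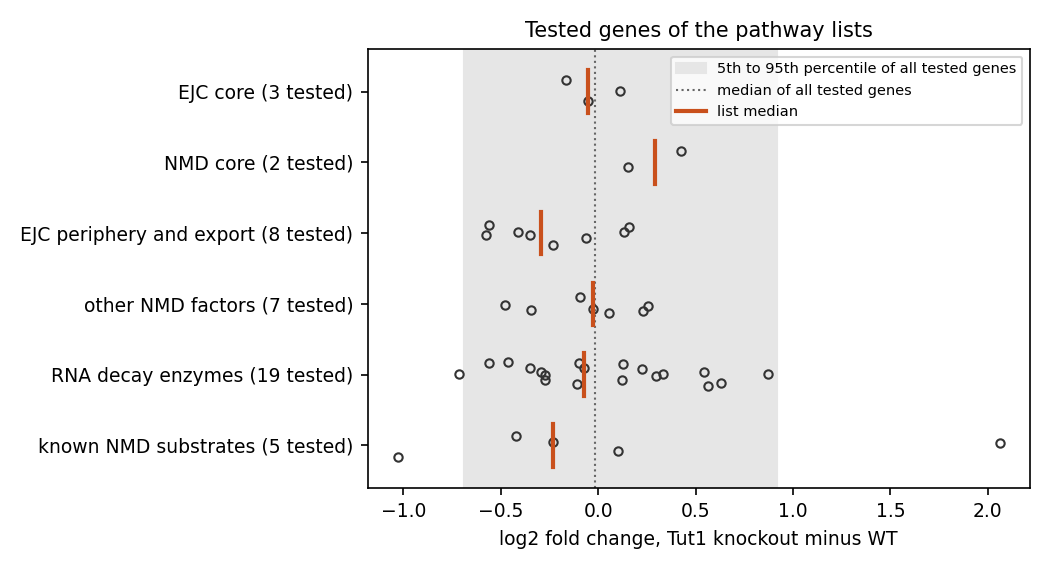
Log2 fold change (Tut1 knockout minus WT) of each tested gene in the EJC, NMD, export, decay and substrate lists; circles are genes, thick bars list medians, the shaded band the 5th to 95th percentile of all tested genes (-0.69 to 0.92) and the dotted line their median. Exosc1 and Atf4 lie below the band and Snhg15 above it; none was called by edgeR.

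Markers of other cell types moved with genotype in these libraries. In these bulk samples, fewer cells of a type and less RNA per cell cannot be told apart. The summed level of 7 markers of the neuron lineage was 536 and 545 CPM in WT against 1199 and 1125 CPM in Tut1 knockout libraries. Of the 6 tested, 2 were called higher, Mapt and Dcx. The 7 include Eomes (Tbr2), which the study uses to mark intermediate progenitors, at a mean of 146 CPM in WT and 220 CPM in Tut1 knockout. The 6 microglia markers summed to 96.9 and 103 CPM in WT against 388 and 337 CPM in Tut1 knockout, with 4 of 4 tested called higher (Cx3cr1, Aif1, Csf1r and Tyrobp), and the 5 mesenchyme markers to 90.9 and 229 CPM against 425 and 288 CPM, with 1 of 3 called higher (Col1a2). The 5 subpallial markers summed to 0 and 50.3 CPM in WT and to 144 and 90.3 CPM in Tut1 knockout, with 1 of 2 tested called higher (Dlx1), and all 5 were at 0 in WT replicate 1. The sum of the 6 blood markers overlapped between the groups, from 1324 to 1740 CPM in WT and from 1434 to 2137 CPM in Tut1 knockout. Of the 5 tested, 3 had higher and 2 lower values in Tut1 knockout. Only Hbb-bh1 was called, as lower (16 and 47 counts in WT, 4 and 13 in Tut1 knockout libraries). Hba-x was higher, with 15 and 24 counts in WT against 43 and 36, but was not called (edgeR, adjusted p = 0.0563). The part of these differences in the members' values was not tested.

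**Figure D4:**
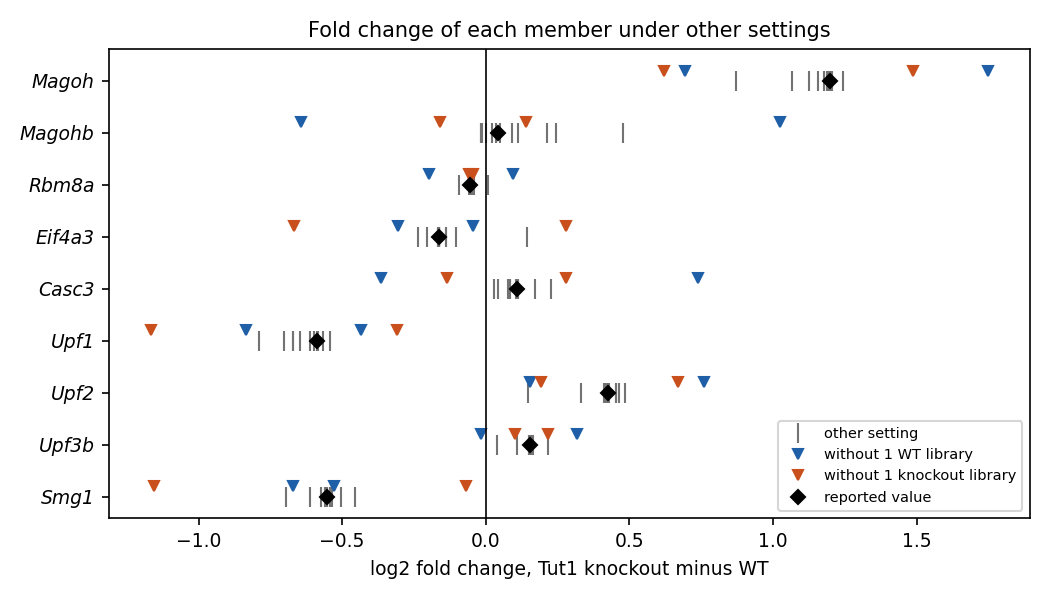
Log2 fold change (Tut1 knockout minus WT) of each member as reported (diamonds), with 1 library left out (triangles) and under the other settings tried (ticks). Leaving out 1 library moved the values further than most other settings did, from -0.67 to 0.28 for Eif4a3 and from -0.64 to 1.02 for Magohb; the tick at 0.48 for Magohb is the sum with Magoh.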

How the data were processed

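Long reads of poly(A)-enriched RNA were aligned by the authors with minimap2 to the Ensembl mouse transcriptome (GRCm38 per the labels) and processed with FLAIR; the deposited values are raw counts per gene. How isoforms were summed, multiply matching reads and strand are not given in the sources used here. Members were matched by identifier (16436 of 16449 identifiers matched the GENCODE GRCm38 annotation). Members and lists were chosen with earlier results of these data known. edgeR 4.0.16 (R 4.3.3; filterByExpr, TMM, two-sided quasi-likelihood test, Benjamini-Hochberg) was fitted to all genes in 4 libraries; 5878 were tested with an adjusted p threshold of 0.05. CPM used TMM-scaled totals of tested genes. SE was the absolute log2 value over the root of F. The biological coefficient of variation was 10.5%. Alternatives included DESeq2 1.42.0, limma-voom (limma 3.58.1), other scalings and filters, and leaving out each library. Near-identical genes were found with blastn 2.17.0 (at least 90% over 300 bases). The fit was also run on simulated counts with the same dispersion for every gene, and no result here rests on that run. Named genes were the 9 members, Tut1, paralogues, near-identical rows and, from each of the 4 related pathway lists, genes past the threshold, filled to 3 by smallest p; 1 gene that this rule names is not reported here. Called cell-type markers, Hba-x and Eomes were named after their values were seen. Exact intervals cover counting error only. Sequences were read from the GENCODE transcripts; promoters and proteins were not used.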

Additional observations from a re-analysis of the deposited data

How the results depend on the processing

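None of the members and related-list genes tested passed the threshold in any of 18 alternatives; most tested 5 of the 9 members and 39 of the 63 related genes, the fit without filter all of them and thinning 34 of the 63. DESeq2 with its independent filter gave an adjusted p for 3 of 5 members and 22 of 39 related genes. Of 154 alternative values of the members' log2 fold changes, 142 kept their direction and 12 reversed. With 1 library left out, values ranged from -0.64 (without WT replicate 2) to 1.02 for Magohb, which was -0.16 without Tut1 knockout replicate 1; from -0.20 to 0.10 (without WT replicate 2) for Rbm8a; from -0.67 to 0.28 (without Tut1 knockout replicate 1) for Eif4a3; from -0.37 (without WT replicate 2) to 0.74 for Casc3, which was -0.14 without Tut1 knockout replicate 1; and from -0.017 (without WT replicate 2) to 0.32 for Upf3b. Magohb was also at -0.015 under both forms of DESeq2 and -0.012 after removal of a length trend, Rbm8a at 0.0093 with total counts as the scale, and Eif4a3 at 0.14 after thinning to the smallest library. The cause was not tested. Over all genes, 121 were called, against 12 by DESeq2, 9 by DESeq2 without its independent filter (an alternative chosen after seeing the data, as were the sum of Magoh and Magohb and the exclusion of marker genes) and 16 after thinning. Leaving out 1 library gave 3 to 108 called genes: 75 without WT replicate 1, 108 without WT replicate 2, 3 without Tut1 knockout replicate 1 and 35 without Tut1 knockout replicate 2. With the replicate number as a block 76 genes were called. Same-numbered libraries did not deviate together (correlation -0.06), but counting noise at this depth could hide a pairing. The labels do not say whether the numbers pair the samples. Among the related genes named, Upf3a ranged from -1.11 without Tut1 knockout replicate 1 to 0.06 without replicate 2, Ruvbl2 from -0.83 to -0.15 and Cwc22 from -0.93 to -0.23 with 1 library left out, and Upf3a was the only 1 of the 11 whose direction turned. Snhg15 kept its direction in every alternative run, with log2 fold changes of 1.59 to 2.67 and adjusted p-values of 0.0558 to 1 where one was given. Depth and the 2 libraries per group both limit the members. With 10 counts or fewer per library, Magoh, Magohb, Upf1 and Smg1 could differ by more than 2-fold in at least 1 direction and not be detected.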
